A study of Mus musculus with 435 samples.

Results

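The circadian clock genes followed here are 10 genes of the molecular clock: Clock, Npas2, Arntl, Per1, Per2, Per3, Cry1, Cry2, Nr1d1 and Dbp. They were found by symbol in the probe-to-gene table of the array, on which each has 1 probe, and kept when the probe was measured on at least 150 arrays. This left 9 genes, all but Arntl, among 13138 probes, for 10890 named genes, that met the same minimum. Liver RNA of mice was hybridised to 435 spotted 2-colour arrays, 218 for strain AJ and 217 for strain C57, with mice labelled high-fat or low-fat diet at week 0, week 1 and weeks 3 to 11, in 44 groups of 8 to 10 arrays. The liver sample was labelled with Cy5 throughout and set against 1 Cy3-labelled reference, RNA pooled from 10 tissues (liver among them) of C57 mice. The labels record neither age, sex, genotype beyond the strain, diet composition, feeding schedule nor the hour of day at which a liver was taken. They also do not say which arrays share a mouse. The p-values within single weeks and at week 0 thus measure the spread between arrays, which may be technical. Those over the 9 weeks measure the spread of weekly group means.

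The clock is a feedback loop of transcription that runs in nearly every cell and is strong in the liver. Clock, or its close relative Npas2, pairs with the product of Arntl (also called Bmal1) and switches on the Per and Cry genes, Nr1d1 and Dbp. The Per and Cry proteins then shut this activity down, while the nuclear receptor encoded by Nr1d1 (Rev-erb alpha) represses Arntl and Npas2. In mouse liver the transcripts of Arntl and Npas2 are therefore high when those of Dbp, Nr1d1 and the Per genes are low. Clock itself varies little over the day. Livers taken at another hour could differ in opposite directions for these 2 sets, though not for every pair of hours or every gene. The diet, strain and week groups below are described with this in view.

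The promoters through which the loop acts carry short motifs, and these are shown because the members differ in which ones they hold. The E-box CACGTG and the related CACGTT are bound by Clock and Arntl, TTATGTAA is a D-box bound by Dbp, and AGGTCA is the core of the element bound by Nr1d1 and its activating counterparts. RefSeq promoters (GRCm38.p6) were found for 9 of the 10 genes. The 250 bases before each start were searched on both strands for these letters, and 6 of the 9 genes held at least 1 match. In the sequences below, written 5′ to 3′ on the gene's strand, capitals mark every match.
Per1 (chr11:69098699-69098948, plus strand, the first of 2 starts): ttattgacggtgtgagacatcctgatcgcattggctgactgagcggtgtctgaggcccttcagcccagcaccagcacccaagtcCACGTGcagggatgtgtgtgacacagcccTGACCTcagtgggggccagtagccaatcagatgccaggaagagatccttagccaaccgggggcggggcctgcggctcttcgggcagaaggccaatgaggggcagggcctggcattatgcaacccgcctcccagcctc
Nr1d1 (chr11:98775378-98775627, minus strand): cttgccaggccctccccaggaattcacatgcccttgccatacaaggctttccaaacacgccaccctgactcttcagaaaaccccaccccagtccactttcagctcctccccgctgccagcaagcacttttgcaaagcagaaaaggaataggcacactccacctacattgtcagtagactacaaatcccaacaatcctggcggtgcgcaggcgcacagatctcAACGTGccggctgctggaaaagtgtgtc
Cry1 (chr10:85185055-85185304, minus strand): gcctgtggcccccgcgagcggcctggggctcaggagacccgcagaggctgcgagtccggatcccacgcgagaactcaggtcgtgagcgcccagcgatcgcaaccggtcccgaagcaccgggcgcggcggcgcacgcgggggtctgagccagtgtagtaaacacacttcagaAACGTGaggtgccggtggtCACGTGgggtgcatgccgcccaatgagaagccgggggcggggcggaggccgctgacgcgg
Per3 (chr4:151044666-151044915, minus strand): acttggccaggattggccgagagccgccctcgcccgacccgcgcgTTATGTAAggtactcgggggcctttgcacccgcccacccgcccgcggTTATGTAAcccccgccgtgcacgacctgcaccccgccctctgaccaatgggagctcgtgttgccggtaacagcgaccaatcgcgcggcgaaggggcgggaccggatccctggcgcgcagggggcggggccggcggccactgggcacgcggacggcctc
Per1 has an E-box 166 bases before its start and the AGGTCA core, on the opposite strand, 137 bases before it. Nr1d1 has CACGTT on the opposite strand 28 bases before its start. Cry1 has both an E-box, 60 bases before its start, and CACGTT on the opposite strand, 79 bases before it. Per3 has the D-box at 205 and at 158 bases before its start and no E-box in this window. Among all 32851 promoters of the same length, CACGTG occurred in 6.02%, CACGTT in 3.85%, TTATGTAA in 0.819% and AGGTCA in 14%, so a single match to the short motifs is not rare. Cry2 held CACGTT on the opposite strand 166 bases before its start, and 1 of 3 starts of Clock held AGGTCA on the opposite strand 119 bases before it. The windows of Npas2, Arntl and Dbp held none of these letters.

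Values are log2 ratios of liver over reference, centred so that 0 is the median probe of the array. A level of 1 means that the gene stood 2-fold higher, relative to that median probe, in liver than in the reference. Such a level does not rank genes by abundance, and fewer cells with a transcript cannot be told apart from less of it per cell. Among tissue markers, 9 of 9 measured hepatocyte genes lay above 0 (median 1.19), while 6 of 6 skeletal muscle genes lay below it (median -1.25). Week 8 was left out, because 28 of its arrays did not resemble the rest, as were 3 further arrays. The 351 arrays that remained cover 9 weeks and 36 groups. The median number of measured probes per week ran from 8228 at week 6 to 13384 at week 9, and that per strain and diet from 11318.5 to 11469.5.

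The activators were measured unevenly. Clock had a value on 323 of the 351 arrays, with a lowest, median and highest level of -2.86, -0.24 and 1.03. Npas2 had one on 201 arrays (-4.86, -0.39 and 1.51) and Arntl on 64 (-3.45, -0.86 and 1.51), so both were missing on many arrays. All 3 stood mostly below the array median. Clock was above 0 in 10 of 36 groups and Npas2 in 3 of 36. Of the 64 Arntl values 44 were below 0, and only 18 groups had 2 or more of them, so Arntl was not tested. Counted over all weeks, Npas2 met the minimum of 150 arrays with 219 and Arntl missed it with 70.

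The Per genes stood at different levels against the reference. Per1 was measured on 337 arrays, with a lowest, median and highest level of -1.29, 0.54 and 2.64, and was above 0 in 35 of 36 groups. Per2 was measured on 324 arrays (-3.74, 0.14 and 1.71) and was above 0 in 22 groups. Per3 was measured on 287 arrays (-3.38, -0.07 and 1.04) and was above 0 in 8 groups.

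Of the remaining repressors and output genes, Nr1d1 resembled Per1, with a value on 316 arrays (-3.90, 0.37 and 2.17) and a group mean above 0 in 35 of 36 groups. Cry1 had a value on 322 arrays (-4.42, 0.21 and 2.41), Cry2 on 315 (-2.95, -0.06 and 4.08) and Dbp on 296 (-3.39, 0.08 and 1.81). Their group means lay above 0 in 23, 12 and 21 groups.

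Arrays of the same group scattered in most clock genes about as much as in other genes. The standard deviation between arrays within a group was 0.44 for Nr1d1, 0.47 for Per1, 0.48 for Clock, 0.57 for Cry2, 0.62 for Per2 and for Dbp, 0.63 for Cry1 and 0.68 for Per3, against a median of 0.61 over the 13128 probes tested. Among those probes, 14.3% had a smaller within-group SD than Nr1d1, 20.2% than Per1, 52.9% than Dbp and 63.9% than Per3. Npas2 was the exception with an SD of 1.15, larger than in 99.1% of probes.

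Diet was compared within each strain to ask whether the high-fat diet moved the clock in liver. In C57 no clock gene passed the test. Mean levels over the 9 weeks (± SD of weekly means) on the high-fat and low-fat diet were 0.62 ± 0.28 and 0.60 ± 0.36 for Per1, 0.43 ± 0.24 and 0.35 ± 0.17 for Nr1d1, and -0.04 ± 0.27 and -0.12 ± 0.29 for Dbp. Per1 differed least between the diets, and its difference turned sign without centring (-0.037) and after quantile normalization (-0.045). Levels of the activators were -0.30 ± 0.42 and -0.24 ± 0.31 for Clock and -0.94 ± 0.90 and -0.78 ± 0.87 for Npas2. The remaining repressors stood at -0.05 ± 0.27 and -0.03 ± 0.41 (Per2), -0.27 ± 0.28 and -0.32 ± 0.46 (Per3), 0.20 ± 0.34 and 0.27 ± 0.38 (Cry1), and -0.36 ± 0.28 and -0.06 ± 0.37 (Cry2).

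In limma with Benjamini-Hochberg adjustment over 13128 probes, 0 of the 9 clock genes passed the threshold of 0.05 in C57, where 0.114% of all probes did. The 9 differences, high-fat minus low-fat, ran from -0.30 to 0.08 with a median of -0.03, beside a median of -0.00076 over all probes. Only Cry2, one of the repressors, had an unadjusted p under 0.05, as did 4.81% of all probes. Its difference was -0.30 ± 0.13 (SE; limma p = 0.0342, adjusted p = 0.953), and in 2 of 9 weeks its high-fat mean was the higher one. Without week 1 the difference of Cry2 was -0.17. The 95% confidence intervals are for the mean difference over the 9 weeks and do not bound that of a single week. They ran from -0.12 to 0.27 for Nr1d1, from -0.22 to 0.24 for Per1, from -0.23 to 0.39 for Dbp and from -0.67 to 0.35 for Npas2.

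In AJ no clock gene passed the test for diet either. Levels on the high-fat and low-fat diet were 0.19 ± 0.41 and 0.02 ± 0.40 for Dbp, -0.14 ± 0.29 and -0.29 ± 0.42 for Per3, and 0.41 ± 0.20 and 0.33 ± 0.36 for Nr1d1. Clock stood at -0.50 ± 0.50 and -0.35 ± 0.40, and Npas2 at -0.96 ± 0.66 and -0.69 ± 0.59. Dbp, Per3 and Nr1d1 thus had the higher mean on the high-fat diet and Clock and Npas2 the lower one, all within the spread of the weeks. Per1 stood at 0.61 ± 0.34 and 0.55 ± 0.50, Per2 at 0.12 ± 0.38 and 0.19 ± 0.32, Cry1 at 0.12 ± 0.32 and 0.17 ± 0.28, and Cry2 at -0.13 ± 0.25 and -0.08 ± 0.29.

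The AJ differences were 0.17 ± 0.15 (SE) for Dbp, 0.15 ± 0.14 for Per3, 0.08 ± 0.10 for Nr1d1, -0.15 ± 0.11 for Clock and -0.27 ± 0.25 for Npas2. Each interval included 0, and limma called 0 of the 9 genes (smallest adjusted p = 0.976), where 0.0229% of all probes passed. None had an unadjusted p under 0.05, against 5.15% of all probes. The high-fat mean of Dbp was the higher one in 6 of 9 AJ weeks, that of Per3 in 6, Clock in 4 and Npas2 in 3. The diet difference in C57 minus that in AJ was called for 0 of 9 genes (smallest unadjusted limma p = 0.211, that of Cry2), where 0.0% of all probes passed and 3.12% had an unadjusted p under 0.05.

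**Figure D1:**
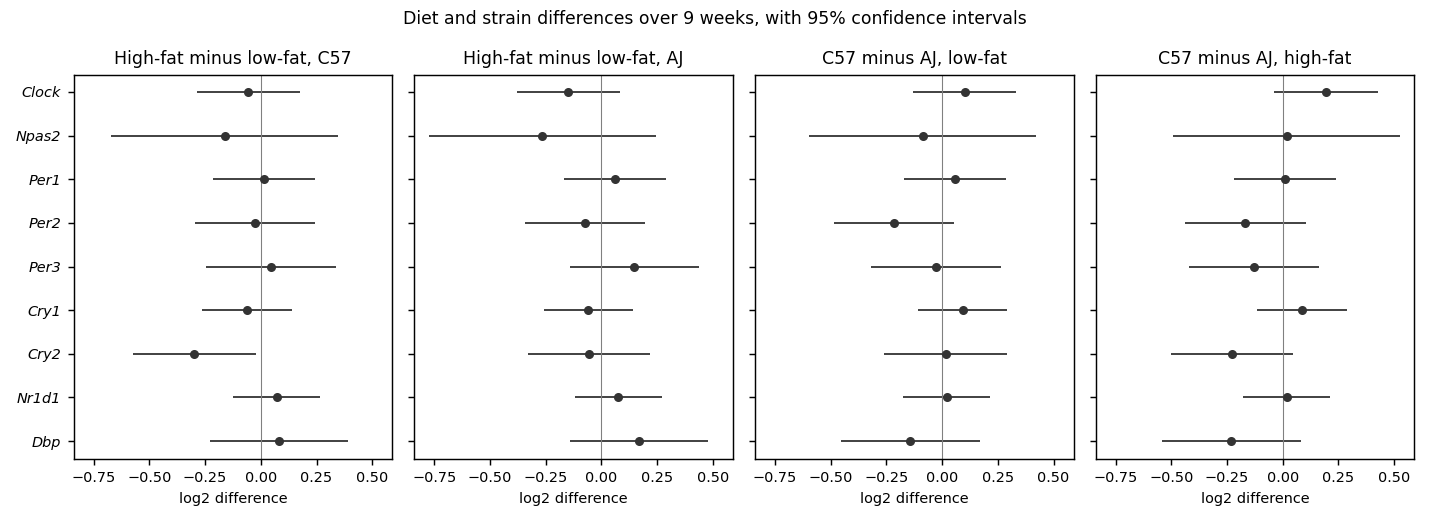
Differences in log2 liver/reference over 9 weeks for the 9 clock genes (points) with 95% confidence intervals from limma (bars), for the diet difference in each strain and the strain difference on each diet. Of the 36 intervals only that of Cry2 for diet in C57 (-0.57 to -0.02) excludes 0, and it did not pass after adjustment over all probes.

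The strains were compared on each diet. On the low-fat diet 0 of 9 clock genes were called in limma, where 1.07% of all probes were. The largest difference in size was that of Per2, which was lower in C57 in 8 of 9 weeks (C57 minus AJ -0.22 ± 0.13, SE; adjusted p = 0.674). On the high-fat diet 0 of 9 were called as well, where 2.11% of all probes were. Clock was higher in C57 in 8 of 9 weeks (0.19 ± 0.11; adjusted p = 0.515) and Cry2 lower in 8 of 9 weeks (-0.23 ± 0.13; adjusted p = 0.53), and Dbp was lower in 6 of 9 weeks (-0.23 ± 0.15; adjusted p = 0.578). None had an unadjusted p under 0.05 on either diet, against 8.98% of all probes for low-fat and 12.3% for high-fat feeding. The 4 series share these arrays with the diet comparisons.

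Weeks differed more than diets or strains. Clock stood at 0.10 ± 0.16 (mean ± SD of the 4 series) at week 1, 0.16 ± 0.10 at week 3 and 0.05 ± 0.18 at week 4, and at -0.51 ± 0.30 at week 5, -0.66 ± 0.18 at week 6, -0.73 ± 0.31 at week 7, -0.33 ± 0.15 at week 9, -0.58 ± 0.30 at week 10 and -0.63 ± 0.41 at week 11. Of the 12 groups up to week 4, 10 were above 0, and of the 24 groups from week 5 on, 0 were. Early groups ran from -0.15 to 0.29 and later ones from -1.08 to -0.10. This split of the weeks, used for Cry1 below too, was not among the planned comparisons. The share of all probes that it would separate was not counted. A straight line fell by 0.08 per week (limma, adjusted p = 0.00053), a slope that 34.2% of all probes passed the threshold for.

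Cry1, one of the repressors, ran the other way over the weeks. Its mean over the 4 series was -0.11 ± 0.09 (SD) at week 1, -0.12 ± 0.20 at week 3 and -0.24 ± 0.14 at week 4, and lay between 0.19 and 0.50 at the 6 later weeks. It was above 0 in 1 of 12 early and 22 of 24 later groups, and its slope was 0.07 per week (limma, adjusted p = 0.00038). Its r with Clock was -0.54 over the 36 group means, and 9.74% of all probes had a lower one. This r was -0.37 without centring and -0.35 with week 8. It was 0.13 after the series and week means were taken out, and 0.02 over arrays with the group mean subtracted.

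Npas2 and Per1 went up and down between weeks. Npas2 stood at -1.55 ± 0.49 at week 1, -1.66 ± 0.51 at week 3 and -1.25 ± 0.82 at week 4, at -0.13 ± 0.45 at week 5 and -0.11 ± 0.05 at week 7, and at -1.11 ± 0.62 at week 11. Its slope of 0.08 per week missed the threshold (limma, adjusted p = 0.0681), and passed it after quantile normalization (0.0326), with a floor for ratios at or below 0 (0.039), over single arrays (0.00069), over averages of consecutive arrays (0.0074) and without week 5 (0.0238) or week 11 (0.0077). That floor left probes without a ratio missing. Up to 10 arrays per group measured it at weeks 7 and 9, and between 2 and 7 at weeks 1, 3 and 4. Per1 was highest at week 6 (1.03 ± 0.40) and week 11 (0.98 ± 0.22) and lowest at week 9 (0.16 ± 0.06), week 3 (0.24 ± 0.37) and week 7 (0.25 ± 0.12). Nr1d1 was lowest at week 3 (0.02 ± 0.36) and highest at week 11 (0.68 ± 0.25), with 0.23 ± 0.04 at week 9, where Per1 was lowest. Its slope of 0.04 per week also passed (limma, adjusted p = 0.0285), and the call was lost with group medians (adjusted p = 0.132), with week 8 (0.114) and without week 1 (0.0517), week 3 (0.131), week 10 (0.0639) or week 11 (0.194).

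Limma called differences between weeks for 7 of the 9 clock genes, where 77.1% of all probes were called, so the count for the clock genes is close to that of the array. The adjusted p was 3.35e-05 for Clock and 0.0014 for Npas2. Per2 (adjusted p = 0.0175) and Per3 (0.0218) passed too, and Dbp (0.249) and Cry2 (0.262) did not. The call of Per2 was lost without week 4 (adjusted p = 0.0633) and without week 11 (0.407), where its mean was -0.48 ± 0.19, and that of Per3 without week 3 (0.0592) and without week 6 (0.0805). That of Nr1d1 (adjusted p = 0.0099) was lost without centring (0.0564), after quantile normalization (0.0852), with week 8 (0.125) and without week 3 (0.0515). Slopes passed for 3 of 9 genes, where 34.2% of all probes passed. Array properties moved with the weeks as well: over the 36 groups, the mean number of measured probes correlated with the group mean of Per1 at r = -0.68, of Cry2 at 0.43, of Per3 at 0.42 and of Clock at 0.20. The part of these properties in the week differences was not tested, and the labels do not say how arrays were processed in batches.

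**Figure D2:**
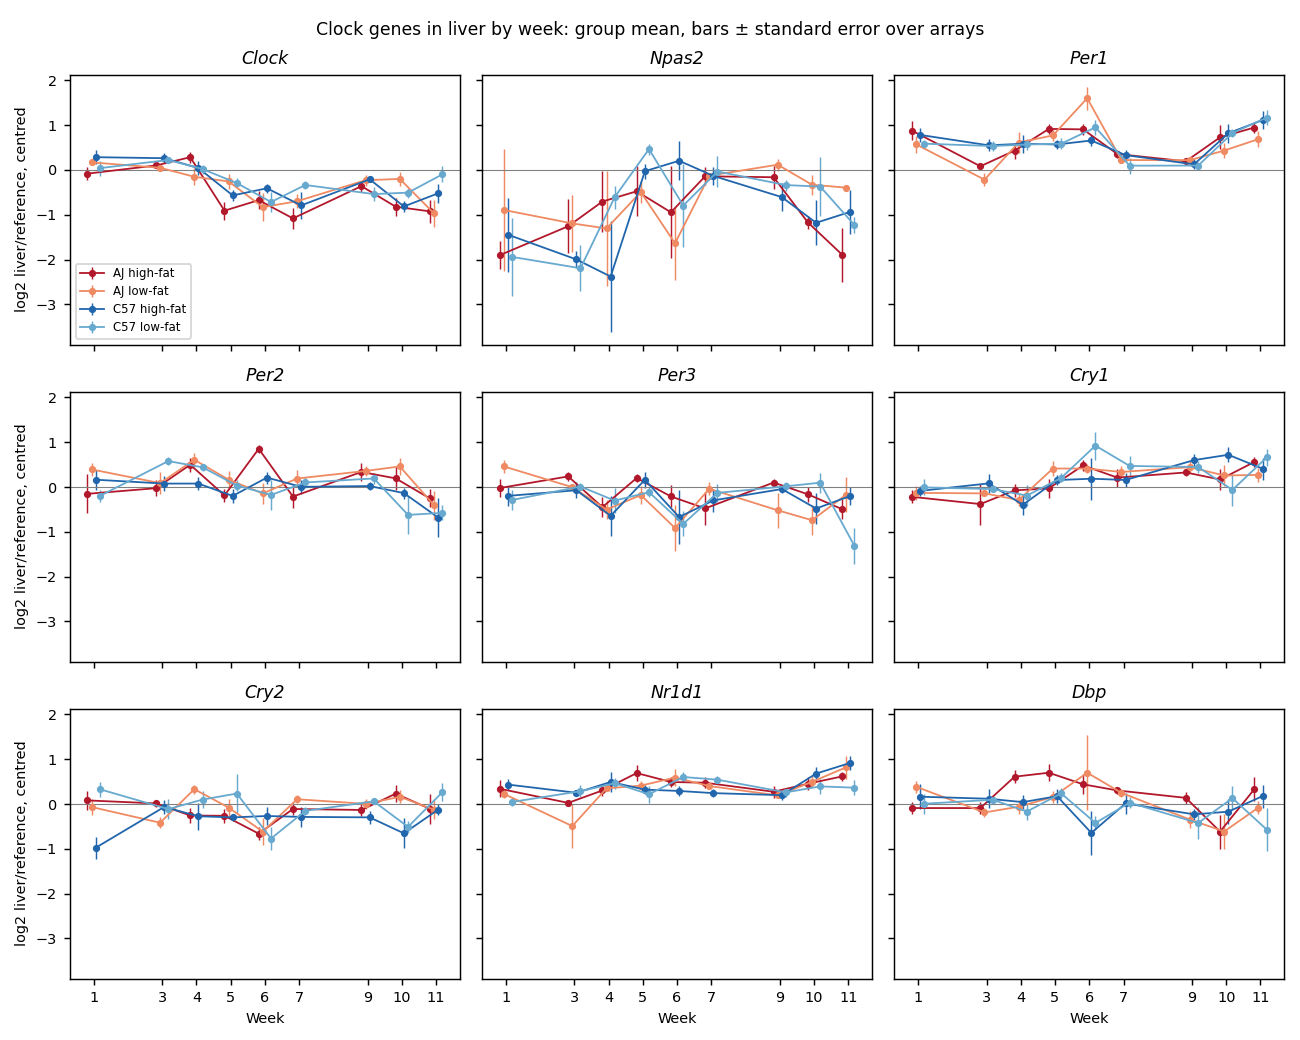
Group mean of the centred log2 liver/reference ratio of each of the 9 clock genes by week, for the 4 combinations of strain and diet (colours), with bars of 1 standard error over the arrays of a group. The mean of the 4 Clock lines is 0.05 at week 4 and -0.51 at week 5, while the lines of Dbp lie as far apart as -0.64 and 0.70 at week 6 and those of Cry2 as -0.98 and 0.33 at week 1.

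The profile of Clock over groups was shared by many probes. Of 12380 other probes with at least 30 shared groups, 163 correlated with Clock above 0.8 over the group means and 20 below -0.8. Among named probes the highest were Stk17b (r = 0.91, n = 36 groups) and Nmur2 (0.89), and lowest were Rer1 (-0.86) and Ifnar1 (-0.85, n = 32). Over arrays, after subtraction of the group mean, the r of Stk17b with Clock was 0.45 and that of Nmur2 0.57. Per1 had 67 such probes above 0.8, led by Tnfsf13b and Acvrl1 (both 0.89), and Nr1d1 had 2, Fzd3 (0.82) and Agt (0.81). For Per2, Per3, Cry1, Cry2 and Dbp 0 probes passed 0.8 in either direction, and Npas2 had 1, Thbs1 (0.82). The genes most like Dbp were Trim25 (0.79) and Wwc2 (0.77), those most like Cry1 were Ptprb (0.76) and Srsf5 (0.74), and those most like Per2 were Alg14 (0.74) and Lrp10 (0.69). For Per3 they were Ms4a6b (0.71) and Ocln (0.70), and for Cry2 Zfand5 and Slc25a17 (both 0.63). No clock gene was among the 2 probes most like, or most unlike, any other clock gene. All these correlations share the weeks and the arrays' quality.

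Over the groups, activators and opposite-phase genes were as often positively as negatively related. Among the activators, Clock varies little over the day, Arntl was not tested and Npas2 scattered widely, which limits this comparison. Collection time was not tested. Of 10 pairs that join an activator (Clock or Npas2) with an opposite-phase gene (Per1, Per2, Per3, Nr1d1 or Dbp), 5 had a negative r over the 36 group means, with a median of -0.03 and a range from -0.54 to 0.37. Clock and Nr1d1 gave the lowest (-0.54), Npas2 and Dbp gave -0.11, and Clock and Dbp gave -0.09. The r of Clock and Nr1d1 was -0.44 after quantile normalization and -0.11 with week 8. That of Clock and Dbp was 0.09 with week 8. Of 11 pairs within 1 of these sets, 5 were negative too, from Per1 and Per3 (-0.44) to Per1 and Nr1d1 (0.63). Per1 and Nr1d1 were thus the most alike pair, and 97.1% of all probes had a lower r with Per1 than Nr1d1 did. After quantile normalization the r of Per1 and Nr1d1 was 0.40. Dbp correlated with Per3 at 0.32 and with Nr1d1 at 0.19, the latter 0.04 without centring.

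When the series and week means were taken out of the group means first, which leaves only what is particular to a group, 7 of the 10 activator pairs were negative and 8 of the 11 pairs within a set were positive. This alternative was chosen after seeing the data. The median r was -0.19 for the former, with the lowest in Npas2 and Per1 (-0.61), and 0.21 for the latter, with Per1 and Nr1d1 (0.50) and Per1 and Dbp (0.46) highest. Clock and Per2 (0.36), Npas2 and Per3 (0.32) and Npas2 and Per2 (0.13) had the opposite sign from the other activator pairs. In Npas2 2 to 10 arrays stand behind a group mean.

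Between arrays of the same group the pairs were close to unrelated. Over arrays with the group mean subtracted, the activator pairs ran from -0.28 to 0.13 with a median of 0.01, and 5 of 10 were negative. Clock and Nr1d1 had the lowest r of all pairs (-0.28, n = 297 arrays), below which lay 1.88% of all probes, and Per1 and Nr1d1 the highest (0.21, n = 307). Dbp correlated at 0.05 with Nr1d1 (n = 278), at 0.16 with Per3 (n = 260) and at 0.05 with Npas2 (n = 180). All arrays share 1 reference pool and 1 centring, which enter every pair.

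**Figure D3:**
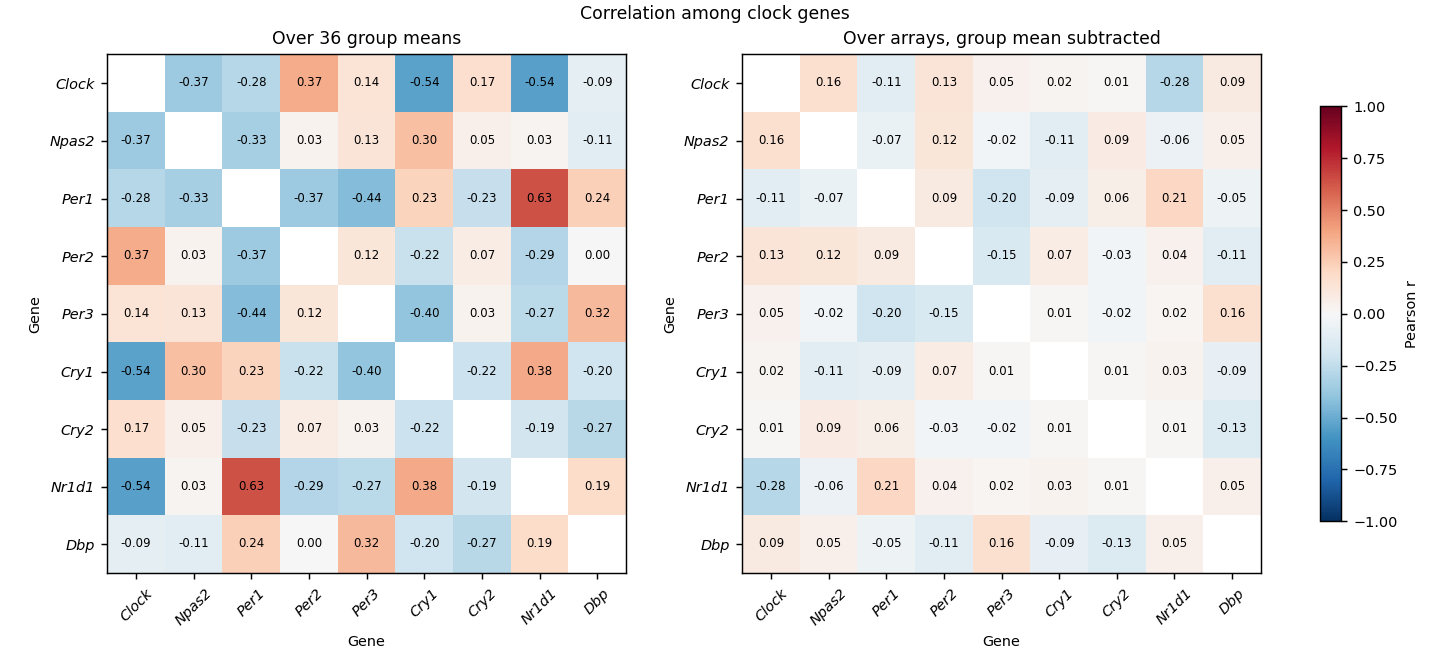
Pearson r between the 9 clock genes (rows and columns), over the 36 group means of strain, diet and week (left) and over single arrays after subtraction of their group mean (right). Per1 with Nr1d1 is the highest in both panels (0.63 and 0.21), Clock with Nr1d1 is low in both (-0.54 and -0.28), and the right panel is otherwise pale.

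Within single weeks, diet comparisons of single arrays called no clock gene. Over the 18 comparisons of strain and week, limma called 0 of 161 tests of clock genes, where 0.0519% of all tests passed, all but 5 of those 113 in AJ at week 4. At an unadjusted p under 0.05 stood 22 of the 161 tests, or 13.7%, against 7.25% of all tests. These 22 were spread over 15 of the 18 comparisons. The 6 of them in Clock and Npas2 were all lower on the high-fat diet (Clock in AJ at weeks 5 and 10, Npas2 in AJ at weeks 10 and 11 and in C57 at weeks 4 and 5). Of the 12 in the opposite-phase genes 8 were higher on it, 3 of 4 in Dbp, 2 of 3 in Nr1d1, 2 of 2 in Per3, 1 of 2 in Per2 and 0 of 1 in Per1, and of the 4 in Cry2 1 was. Over all 161 tests, whatever their p, 75 differences were positive. By gene, positive differences numbered 9 of 18 in Clock and 7 of 17 in Npas2. Out of 18 for each opposite-phase gene, they numbered 11 in Dbp and Per1, 10 in Nr1d1 and Per3, and 5 in Per2. Cry1 and Cry2 each had 6 of 18. The shared direction of the 6 tests in Clock and Npas2 thus describes only tests picked by a low p.

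The smallest unadjusted p was that of Cry2 in C57 at week 1. Its 9 high-fat arrays had a lowest, median and highest level of -2.02, -1.17 and 0.49, and its 10 low-fat arrays -0.36, 0.31 and 1.03, so that the high-fat arrays lay lower with some overlap (-1.31 ± 0.28, SE; limma p = 0.00012, adjusted p = 0.368). Per2 in AJ at week 6 was higher on the high-fat diet, with 8 arrays up to 1.20 (median 0.81) against 7 from -1.16 (median 0.04). The groups did not overlap, although the lowest high-fat array (0.5275) lay just above the highest low-fat one (0.5256). The difference was 1.00 ± 0.28 (limma p = 0.0018, adjusted p = 0.355). In AJ at week 6, 11.7% of all probes had an unadjusted limma p under 0.05. The share of all probes without overlap was not counted. Per1 in the same groups went the other way, at 0.91 ± 0.39 (SD, n = 10) with high-fat and 1.60 ± 0.81 (n = 10) with low-fat feeding (limma p = 0.023, adjusted p = 0.389).

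Dbp gave 4 of the 22 low p-values, all in AJ. At week 4 its 9 high-fat arrays ran from 0.09 to 1.32 (median 0.51) and its 10 low-fat arrays from -0.93 to 0.70 (median -0.06), a difference of 0.67 ± 0.22 (limma p = 0.0068, adjusted p = 0.11). It was higher on the high-fat diet at weeks 5 (0.54) and 9 (0.48) too, but lower at week 1 (-0.48). Nr1d1, of the same set as Dbp, stood at -0.05 and 0.11 at weeks 4 and 1, with the opposite sign, and at 0.28 and 0.08 at weeks 5 and 9, with the same sign. In AJ at week 4, 19.2% of all probes had an unadjusted p under 0.05.

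In 3 comparisons, picked after their values were seen, several genes differed by value at once. In C57 at week 11 the high-fat mean of Per3 lay above the low-fat one by 1.12 ± 0.40 (limma p = 0.0128, adjusted p = 0.675), Nr1d1 by 0.55 ± 0.24 (p = 0.0345, adjusted p = 0.675) and Dbp by 0.75 ± 0.53 (adjusted p = 0.744), and Clock was lower by value (-0.42 ± 0.28, adjusted p = 0.729). Per1 (-0.06), Per2 (-0.10) and Npas2 (0.30) did not follow. Of its 8 high-fat arrays Per3 had a lowest, median and highest level of -0.86, -0.39 and 0.58, against -2.63, -0.98 and 0.07 on 7 low-fat arrays, and the groups overlapped. In AJ at week 5 Clock had the lower high-fat mean (-0.65 ± 0.27; limma p = 0.0225, adjusted p = 0.596), and Dbp (0.54), Per3 (0.38), Nr1d1 (0.28) and Per1 (0.15) had the higher one, while Npas2 (0.02) and Per2 (-0.35) did not follow. In AJ at week 10 the high-fat means of Clock (-0.62 ± 0.26; limma p = 0.0255) and Npas2 (-0.84 ± 0.33; p = 0.0271) were lower, both with an adjusted p of 0.683. There Per3 (0.58) and Per1 (0.29) were higher by value, Per2 (-0.27) lower, and Dbp (-0.0015) and Nr1d1 (-0.04) close to level.

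Over all 18 comparisons the mean diet difference of Clock and Npas2 and that of the 5 opposite-phase genes had opposite signs in 10. With Npas2 alone for the activators the count was 7 and with Clock alone 9, an alternative chosen after seeing the data. Clock itself varies little over the day and Npas2 scattered widely between arrays, which limits these counts, and collection time was not tested. The 5 opposite-phase genes all took the same sign in 1 of 18, C57 at week 1, where the high-fat group was higher by 0.24 on average and the activators were higher too (0.37). The mean of the 5 genes ran from -0.22 (AJ, week 1) to 0.45 (C57, week 11), and that of the activators from -0.88 (C57, week 4) to 0.65 (C57, week 6). Dbp and Nr1d1 had the same sign in 11 comparisons, Nr1d1 and Per1 in 9, Dbp and Per3 in 9, and Npas2 and Dbp had opposite signs in 8.

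**Figure D4:**
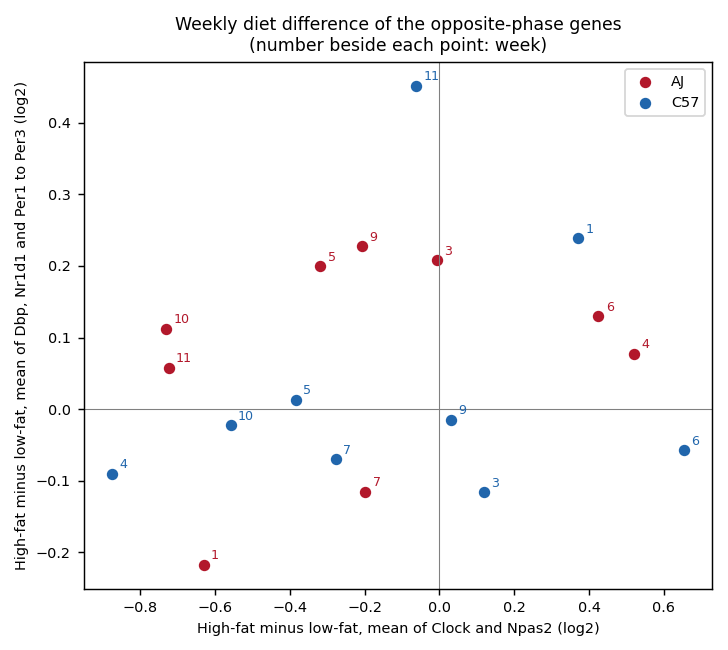
For each strain (colour) and week (number beside the point), the high-fat minus low-fat difference in log2 liver/reference of Clock and Npas2 averaged (horizontal) against that of Dbp, Nr1d1, Per1, Per2 and Per3 averaged (vertical). Opposite signs put a point in the upper left or lower right of the plot. Of the 18 points 10 lie there, and the vertical spread, from -0.22 to 0.45, is smaller than the horizontal one.

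At week 0, whose labels also name a diet, few arrays measured the clock genes. In limma 5 of them could be tested in AJ and 6 in C57, and 0 were called, where 0.0% of all tests passed and 8.07% had an unadjusted p under 0.05. Dbp stood at -0.24 ± 0.49 (SD, n = 6) and -0.04 ± 0.43 (n = 8) in the high-fat and low-fat groups of AJ, and at -0.22 ± 0.16 (n = 5) and -0.27 ± 0.28 (n = 6) in those of C57. Clock stood at -0.08 ± 0.37 (n = 4) and -6.3e-05 ± 0.28 (n = 5) in AJ and at 0.08 ± 0.22 (n = 6) and -0.04 ± 0.14 (n = 7) in C57. These lay inside the range of its groups at weeks 1 to 4. Per2 in C57 was at -0.08 ± 0.16 (SD, n = 3) under the high-fat and 0.44 ± 0.16 (n = 3) under the low-fat label. In limma that difference had an adjusted p of 0.834.

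Of 35 listed other genes of the loop, among them Nr1d2, Nfil3, Tef, Bhlhe40, Timeless and the casein kinases, 18 were tested, and limma called 0 of 18 in each diet and strain comparison. The median diet difference was 0.0013 in C57 and 0.04 in AJ, beside -0.00076 and -0.02 over all probes. Smallest in p was Arntl2, a paralogue of Arntl, for diet in C57 (0.22 ± 0.09, SE; adjusted p = 0.922), Gsk3b, a kinase that acts on clock proteins, for diet in AJ (0.16 ± 0.07; adjusted p = 0.942), and Nfil3, the repressor that competes with Dbp at D-boxes, for strain on the low-fat diet (0.38 ± 0.15; adjusted p = 0.357). With single arrays as replicates Nfil3 was called (0.35 ± 0.11, SE; limma adjusted p = 0.0454). Smallest on the high-fat diet were Hdac3 (-0.34), Tef (0.15) and Prkaa2 (0.50), and on the low-fat diet Btrc (0.21) and Hdac3 (-0.28) followed Nfil3. For the difference between strains in the diet effect they were Cul4a (-0.31), Bhlhe40 (-0.52) and Btrc (-0.25).

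Weeks differed for 12 of these 18 genes (limma, adjusted p under the threshold), beside 77.1% of all probes. Tef, a relative of Dbp that also binds D-boxes, fell by 0.10 per week (limma, adjusted p = 2.8e-05), from a mean over the 4 series of 0.05 ± 0.20 (SD) at week 1 to -1.21 ± 0.23 at week 10 and -0.86 ± 0.45 at week 11. Dbp at the same weeks stood at 0.12 ± 0.21, -0.32 ± 0.36 and -0.03 ± 0.39. Whether the courses of these related genes differ was not tested. Nr1d2, the close relative of Nr1d1, did not pass (adjusted p = 0.165).

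Genes downstream of the clock or of the daily feeding rhythm gave the clearest diet result among the lists. Thrsp, which promotes fatty acid synthesis and follows feeding, rose with high-fat feeding in AJ and in C57. In C57 its level was 0.28 ± 0.54 (SD of 9 weekly means) with the high-fat and -0.99 ± 0.52 with the low-fat diet, a difference of 1.27 ± 0.17 (SE), or 2.40-fold (limma, adjusted p = 0.00048), with the same sign in 9 of 9 weeks. In AJ it was -0.37 ± 0.55 (8 weeks) and -1.31 ± 0.39 (9 weeks), a difference of 1.03 ± 0.18 (limma, adjusted p = 0.042) with the same sign in 8 of 8 weeks. The AJ call was lost in 11 of the alternatives, for example without centring (adjusted p = 0.0542) and without week 10 (0.245), though its difference stayed between 0.78 and 1.14 in all of them. The other 18 tested genes of that list, among them Wee1, Cyp7a1, Ppara and Insig2, were not called in either strain. The list's medians were 0.04 in C57 and 0.05 in AJ. With Thrsp counted, 3 of 19 genes had an unadjusted limma p under 0.05 in C57 and 5 of 19 in AJ. Of all probes 4.81% and 5.15% did. Among these genes, Ppara (0.50 in C57, 0.48 in AJ) and Insig2 (0.27, 0.20) were higher on the high-fat diet, and Avpr1a was lower in AJ (-0.38).

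Genes that answer glucocorticoids and fasting, whose levels also follow the hour of the day, gave 0 calls among 10 tested in each diet and strain comparison. Pdk4, which spares glucose in the fasted liver, had the smallest p for diet in AJ (0.55 ± 0.18, SE; limma adjusted p = 0.852). Of these 10 genes 9 differed between weeks, and of the 19 output genes 17 did, where 77.1% of all probes did.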

How the data were processed

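The deposited values are linear ratios of liver (Cy5) over pooled reference (Cy3), which the authors scaled so that each array's mean is 1, as the deposited columns show. The image analysis, background correction and normalization are not given in the sources used here, and no depth exists for arrays, whose number limits the precision. The log2 of each positive ratio was taken without a pseudocount, 0 and negative ratios were treated as missing, and each array was centred on its median over probes measured on at least 150 arrays. Columns with identical values (2 pairs, in the AJ high-fat groups) were counted once. Arrays that correlated below 0.15 with the median array were left out, as was week 8.

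Diet, strain and week were tested with limma 3.58.1 in R 4.3.3 on 36 weekly group means (at least 2 arrays each, and at least 5 of 9 weeks per series), with terms for series and week, over 13128 probes with Benjamini-Hochberg adjustment and a threshold of 0.05. Single weeks and week 0 were tested with limma on arrays, with at least 3 per diet. The code was tested on simulated data. Named are all members, the genes of 3 lists past the threshold or otherwise the 3 other clock genes of smallest unadjusted p, and the 2 named genes most and least like each member (at least 30 shared groups). The members and lists were chosen with earlier results of these data known. Genes beyond this rule (Nr1d2, Pdk4) were chosen after their values were seen. Alternatives were no centring, quantile normalization, filters, a floor for ratios at or below 0, medians, kept arrays, week 8, single arrays, averages of consecutive arrays, the replicate block and each week left out.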

Additional observations from a re-analysis of the deposited data

Results flagged for a closer look

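Of 36 sets of 9 weekly means (9 clock genes in 4 combinations of strain and diet), 3 held a lowest week far from the other 8 by Dixon's test, where chance gives about 1 in 20. Per2 in C57 on the high-fat diet stood at -0.68 at week 11, with the next lowest week at -0.20, and its 6 arrays had a lowest, median and highest level of -2.69, -0.34 and 0.21. Nr1d1 in AJ on the low-fat diet stood at -0.49 at week 3, with the next lowest at 0.19, and its 8 arrays ran from -3.90 over -0.04 to 0.33. Dbp in C57 on the high-fat diet stood at -0.64 at week 6, with the next lowest at -0.23, and its 6 arrays ran from -2.78 over -0.37 to 0.42. In all 3 the lowest array lay far below the median array of its group.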

How the results depend on the processing

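None of the 9 clock genes was called for diet or strain under any alternative run. Of the 18 other clock genes 1, Nfil3, was called for strain on the low-fat diet over single arrays. Small diet differences turned sign in C57: Per1 without centring (-0.037), after quantile normalization (-0.045), with group medians (-0.079) and with week 8 (-0.12), Per3 after quantile normalization (-0.038) and with a floor for ratios at or below 0 (-0.086), Per2 with medians (0.020) and Nr1d1 with week 8 (-0.058). In AJ, Cry1 (0.063) and Cry2 (0.021) turned with the floor. Slopes turned for Cry2 with the floor (-0.0042) and Per1 with medians (-0.0017). With 1 week left out in turn, C57 differences ran from -0.014 to 0.052 (Per1), -0.090 to 0.033 (Per2), -0.089 to 0.12 (Per3), -0.31 to 0.040 (Npas2), -0.17 to 0.021 (Cry1) and -0.0024 to 0.13 (Dbp), AJ Cry2 from -0.12 to 0.010, and slopes from -0.014 to 0.032 (Per1) and -0.0048 to 0.0089 (Cry2). Slopes were called for 7 clock genes over single arrays and over averages of consecutive arrays, and for 2 to 4 with a week left out. Of the 2 diet calls among the other lists, both Thrsp, 1 was left without centring, without minimums, with the floor, with week 8 and over consecutive arrays, 1 to 2 with a week left out, and 0 under the strict filter, which did not test Thrsp. The cause was not tested.

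Over all probes, diet calls in C57 (15) became 7 with week 8, 77 over single arrays, 48 over consecutive arrays and 3 to 12 with a week left out. Those in AJ (3) became 0 without centring, without minimums, with the floor and with week 8, 18 over single arrays, 9 over consecutive arrays and 0 to 2 with a week left out. The difference between strains in the diet effect (0) gave 1 over single arrays, with the block and over consecutive arrays. Strain calls on the low-fat diet (140) became 222 after quantile normalization, 432 over single arrays and 360 over consecutive arrays, and on the high-fat diet (277) 148 with week 8, 816 and 663, and 178 without week 7. Under the strict filter, which tests fewer probes, week calls were 6511 and slopes 2963, and slopes were 7335 over single and 6794 over consecutive arrays. Single-week calls (113) became 171 without centring and 6 over consecutive arrays.

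Deviations of high-fat and low-fat arrays with the same sample number correlated at a median of 0.0021 over 159 pairs, against -0.0055 over 1551 other pairs. The numbers run on from week to week and are offset between the diets in AJ and in the last weeks of C57. Pairing by position within a week was therefore not tested, and the replicate block used the same numbers. With the replicate block 0 clock genes were called in each comparison, and all probes gave 71 calls for diet in C57, 14 in AJ, 420 and 696 for strain on the low-fat and high-fat diet, 3 in single weeks and 5 at week 0.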
